A study of Mus musculus with 12 samples.

Results

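Spindloid tumour lines A1129 and A1471 were compared by RNA-sequencing of tumourspheres, 4 libraries of each line out of 12 libraries in the series. Both are cell lines from breast tumours of mice, each line from its own tumour, and both have the genotype MMTV-Metmt;Trp53fl/+;Cre. A mutant Met transgene is under the control of the mammary MMTV promoter, and 1 allele of Trp53 can be deleted by Cre. Spheres of each line received the vehicle DMSO, Crizotinib, which inhibits the Met kinase, PD173074, which inhibits FGF receptor kinases, or the combination (1 µM of each in the study's methods), and after 24 h 1 library was made for each treatment. The other 4 libraries are those of the remaining line of this genotype, A1005, and are given beside the compared lines for orientation. Libraries were matched by treatment, which gave 4 differences per gene, each A1129 minus A1471.

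A tumour line carries the expression state of the tumour and of the cell it grew from. Lines of one genotype can differ in which developmental transcription factors, matrix genes and adhesion molecules are switched on, in imprinted genes, and in the copy number of chromosome segments. Spindloid mammary tumours are spindle-celled and have features of epithelial-mesenchymal transition (EMT), the programme by which epithelial cells lose keratins and cell junctions and take on a motile, matrix-producing form. Met and FGFR1 are receptor tyrosine kinases that can signal through the ERK pathway, and the inhibitors used act on these receptors.

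The libraries of the compared lines held 13077143 to 15317336 counts, and 13836 genes passed a filter on low counts. Differences are on the log2 scale of CPM, counts relative to a library size adjusted by the trimmed mean of M values (TMM), and a count under 3 was raised to 3. A gene was called where the lines differed at least 2-fold in the same direction under each of the 4 treatments and the higher line had at least 10 counts in every library. Each side is 1 line, and its libraries are not independent replicates. The SD given with a mean difference is therefore the spread over the 4 treatments, and no p-value for a difference between the lines is given. CPM values are listed in the order DMSO, Crizotinib, PD173074 and combination. CPM were not divided by gene length, so levels are compared between lines within a gene and not between genes.

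The rule called 978 genes, 7.07% of those tested. Of these, 613 were higher in A1129 (4.43%) and 365 were higher in A1471 (2.64%). The median difference of the called genes was 5.78-fold for those higher in A1129 and 5.60-fold for those higher in A1471, while the median of the mean differences over all tested genes was 0.01. The weakest of the 4 differences was at least 4-fold in 273 and 166 of them and at least 64-fold in 10 and 12. At the edge of the rule, Tgfbr1, Slc25a15 and B4galt5 were just inside with weakest differences of 2-, 2.01- and 2.02-fold, and Pgm2l1, Bcl6 and Lrp11 were just outside with 1.9994-, 1.98- and 1.97-fold, all higher in A1129. Among the genes higher in A1471, Zfp516, Me1 and Rps6ka2 were just inside with 2.01-fold each, and P4ha1, Acan and Hdac5 just outside with 1.97-, 1.96- and 1.95-fold.

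The separation was present without treatment and with it. With DMSO, 1474 genes were at least 2-fold higher in A1129 and 839 in A1471, and with the combination 1671 and 1218 were. Of the genes past 2-fold with DMSO, 41.6% of those higher in A1129 and 43.5% of those higher in A1471 stayed past it under every treatment. A further 139 and 122 genes met the rule with DMSO, Crizotinib and PD173074 but not with the combination, and 546 and 463 genes passed 2-fold with the combination alone. The root mean square difference between the lines was 1.08 on the log2 scale with DMSO and 1.18 with the combination, about the size of the change that the combination made within A1129 (1.19) or within A1471 (1.22).

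**Figure D1:**
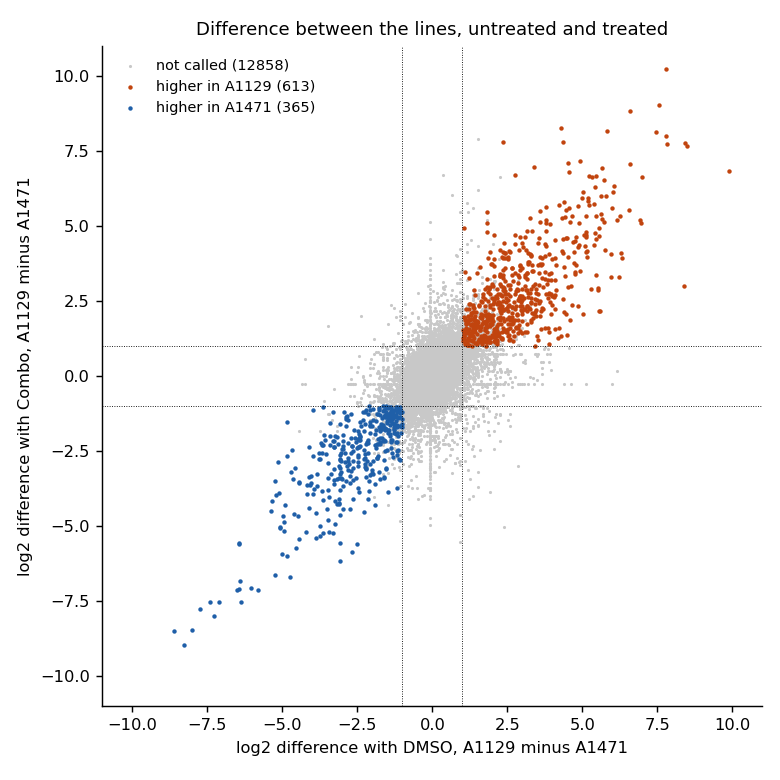
Log2 difference between A1129 and A1471 with DMSO (horizontal axis) and with the combination (vertical axis) for each of the 13836 tested genes, 1 point per gene; dotted lines mark 2-fold. Orange points are the 613 genes called higher in A1129, blue points the 365 called higher in A1471, and grey points the genes not called, many of which pass 2-fold on one axis alone.

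Of the non-tumour cell markers, 9 of 12 immune genes were at 3 counts or fewer in every A1129 library and 10 of 12 in every A1471 library, and the sums of the list were 8.73 to 12.3 CPM and 5.91 to 9.56 CPM. The pan-leukocyte gene Ptprc was read at 0 to 0.132 CPM in A1129 and 0 to 0.138 CPM in A1471, against 13.6 to 20.5 CPM in A1005. Of 8 endothelial markers, 4 and 5 were at 3 counts or fewer in every library of A1129 and A1471. The endothelial sums, 8.08 to 93.8 CPM and 10.3 to 79.1 CPM, were mostly the VEGF receptor gene Flt1, at 56.6, 92.3, 12.7 and 6.83 CPM in A1129 and 56.9, 78.1, 8.97 and 6.87 CPM in A1471. All 9 adipocyte and red blood cell markers were at 3 counts or fewer in every library of both lines. Of these markers 3 immune, 2 endothelial and none of the adipocyte and blood genes passed the filter on low counts, so most could not be called, and at 7.07% of all tested genes the lack of calls among these 5 says little.

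A small group of genes was on in one line and off in the other. With at most 3 counts in each library of one line and at least 10 CPM in each library of the other, 5 genes were on in A1129 (Sox11, Zfp275, Armcx2, Zfp422 and Ebf3) and 7 were on in A1471 (Evc2, Cstf2t, Efnb1, Evc, Rbpms, Runx3 and Bhlhe22). All 12 are annotated as protein-coding, and 3 of them lie on the X chromosome, which holds 455 of the 13836 tested genes. The share of protein-coding genes over all tested genes is not given here, and with 12 genes nothing is read from these numbers. The promoter windows of 5 of them are shown because the genes moved as a unit or differ in the density of CG dinucleotides, the sites of DNA methylation in mammals. Each window has 300 bases, 250 before and 50 after the transcription start, from RefSeq on build GRCm38.p6, the build also called mm10. The windows are printed 5′ to 3′ on the strand of the gene, with CG in capitals.
Evc (chr5:37336832-37337131, minus strand): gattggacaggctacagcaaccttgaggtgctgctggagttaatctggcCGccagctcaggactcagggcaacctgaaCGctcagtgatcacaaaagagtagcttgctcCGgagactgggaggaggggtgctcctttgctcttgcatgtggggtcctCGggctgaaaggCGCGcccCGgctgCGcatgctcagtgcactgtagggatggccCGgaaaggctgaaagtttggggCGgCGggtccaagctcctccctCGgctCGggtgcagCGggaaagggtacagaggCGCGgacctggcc
Evc2 (chr5:37338228-37338527, plus strand): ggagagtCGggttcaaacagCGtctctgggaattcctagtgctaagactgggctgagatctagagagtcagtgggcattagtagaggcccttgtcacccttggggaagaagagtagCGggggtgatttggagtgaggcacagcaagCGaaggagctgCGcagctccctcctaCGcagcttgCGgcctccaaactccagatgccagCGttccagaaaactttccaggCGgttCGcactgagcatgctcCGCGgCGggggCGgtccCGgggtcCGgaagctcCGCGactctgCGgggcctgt
Cstf2t (chr19:31082591-31082890, plus strand): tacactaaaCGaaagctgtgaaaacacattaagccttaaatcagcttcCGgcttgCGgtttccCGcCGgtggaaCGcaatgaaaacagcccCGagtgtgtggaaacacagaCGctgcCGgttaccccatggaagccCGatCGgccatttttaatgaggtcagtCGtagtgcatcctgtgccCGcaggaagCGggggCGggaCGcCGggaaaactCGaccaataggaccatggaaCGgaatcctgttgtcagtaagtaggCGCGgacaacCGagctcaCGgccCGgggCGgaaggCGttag
Zfp275 (chrX:73342370-73342669, plus strand): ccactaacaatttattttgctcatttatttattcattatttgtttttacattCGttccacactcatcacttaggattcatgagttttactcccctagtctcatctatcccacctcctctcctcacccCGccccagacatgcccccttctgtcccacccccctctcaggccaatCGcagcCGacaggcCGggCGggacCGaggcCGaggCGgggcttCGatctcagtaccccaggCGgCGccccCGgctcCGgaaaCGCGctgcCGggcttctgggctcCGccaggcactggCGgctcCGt
Armcx2 (chrX:134809172-134809471, minus strand): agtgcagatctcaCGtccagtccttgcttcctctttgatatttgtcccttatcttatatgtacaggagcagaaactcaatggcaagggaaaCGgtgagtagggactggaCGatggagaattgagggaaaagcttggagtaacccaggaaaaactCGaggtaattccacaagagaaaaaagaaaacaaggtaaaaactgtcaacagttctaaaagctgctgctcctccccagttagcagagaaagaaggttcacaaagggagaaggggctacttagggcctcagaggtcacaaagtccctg

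These windows held 16 CG in Evc, 19 in Evc2, 26 in Cstf2t, 20 in Zfp275 and 4 in Armcx2. Over the 27025 genes with a RefSeq window, the window with the most CG was counted for each gene. The median was 8, the quartiles were 3 and 22, and 94.6% held at least 1. A window was found for 10 of the 12 genes, and beyond those printed Ebf3 had 46 CG, Runx3 45, Zfp422 32, Sox11 21 and Efnb1 14. No methylation was measured here.

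Evc and Evc2 encode a complex at the base of the primary cilium that transmits Hedgehog signals. They are transcribed away from each other from starts 1605 bases apart on chromosome 5 (GRCm38, Evc 37289098-37336894 and Evc2 37338499-37425055). In A1471, Evc was read at 30.9, 30.9, 35.7 and 48.3 CPM and Evc2 at 61.4, 65.3, 68.6 and 95.4 CPM, while all 4 libraries of A1129 held 0 counts of both. Against a floor of 3 counts per library, A1471 was at least 156-fold higher for Evc and at least 311-fold higher for Evc2 under every treatment. Both were also off in A1005, with 0 counts of Evc in every library and at most 1 count of Evc2. The pair was thus on in A1471 alone among the 3 lines.

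Rbpms, an RNA-binding protein gene on chromosome 8, had 33.7, 34.9, 27.5 and 34.7 CPM in A1471 and 0 counts in every A1129 library, a difference of at least 128-fold under each treatment. The ephrin gene Efnb1 on the X chromosome had 42.4, 40, 38 and 41.6 CPM in A1471 and 0, 0, 0 and 1 counts in A1129. Cstf2t, an intronless relative of the polyadenylation factor gene Cstf2 on chromosome 19, had 51.2, 47.5, 60 and 67.3 CPM in A1471 and 0, 0, 0 and 1 counts in A1129. Each of these 3 genes was on in A1005 as well, at 53.4 to 91.1 CPM, 11.6 to 22.3 CPM and 54.7 to 72.7 CPM, so that A1129 was the line without them. The transcription factor gene Runx3 had the same order, with 24.1 to 35.2 CPM in A1471, 0 to 3 counts in A1129 and 41.6 to 71.4 CPM in A1005. Bhlhe22, a neural basic helix-loop-helix repressor gene, was read at 13.2 to 25.1 CPM in A1471 and at no more than 0.39 CPM in either of the other lines.

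Among the genes on in A1129, Sox11, a SoxC transcription factor of progenitor cells, had 70.5, 71.2, 73 and 48.6 CPM. A1471 held 0, 0, 3 and 0 counts of Sox11, and A1005 held none in any library. The X-linked Armcx2, which encodes an armadillo repeat protein, had 45.8, 43.1, 51.1 and 58 CPM in A1129, 0, 1, 1 and 0 counts in A1471 and at most 1 count in A1005. The zinc finger gene Zfp275, also X-linked, had 74.2, 78.5, 74.2 and 45.8 CPM in A1129 and 0, 0, 2 and 0 counts in A1471, and was on in A1005 at 35 to 47.4 CPM. Summed over the 4 libraries, the ratio of A1129 to A1471 was 1215-fold, with a 95% interval of 415 to 5894, for Sox11, and 1887-fold, with a 95% interval of 522 to 15587, for Zfp275. These intervals, here and below, are exact binomial intervals that cover counting error alone. Zfp422, read at 35 to 63.5 CPM in A1129, lies on chromosome 6 next to Rassf4, a Ras-association domain gene, which was also among the most separated genes. Ebf3, a helix-loop-helix transcription factor gene, was read at 13.8 to 18.1 CPM in A1129 and 0 to 2 counts in A1471.

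**Figure D2:**
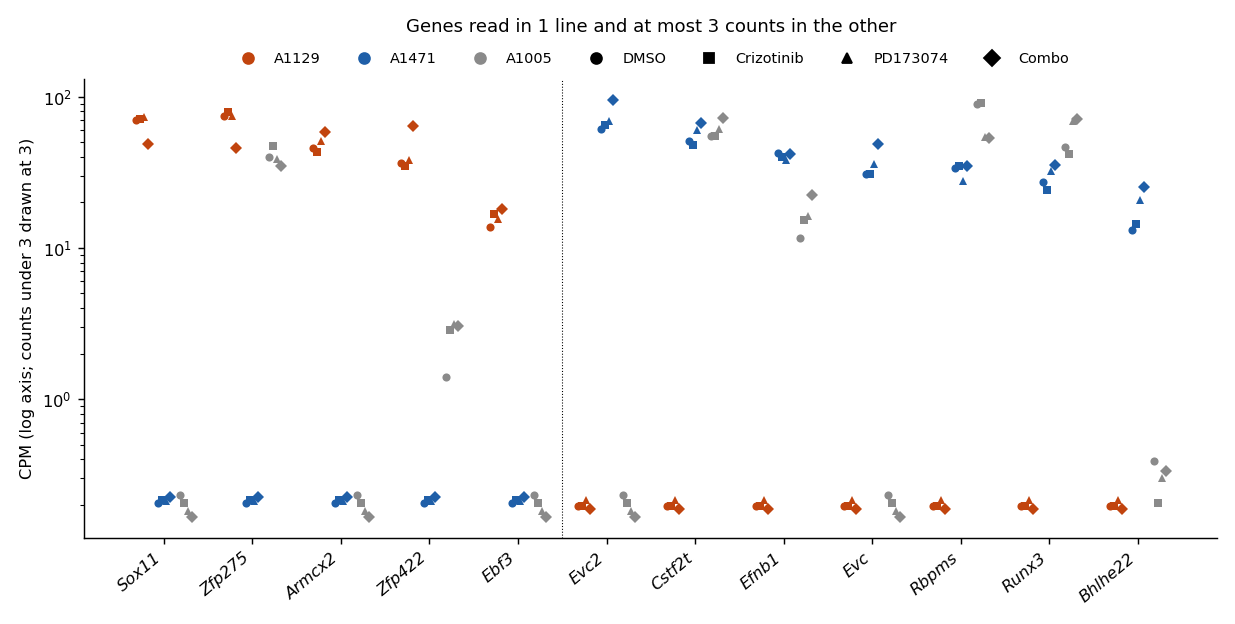
CPM of the 12 genes on in one line and off in the other, on a log axis, with 1 point per library; colours mark the line and marker shapes the treatment, and counts under 3 are drawn at 3. The 5 genes on the left are on in A1129 and the 7 on the right in A1471, and the grey points of A1005 sit with the high line for Zfp275, Cstf2t, Efnb1, Rbpms and Runx3 and at or near the floor for Sox11, Armcx2, Ebf3, Evc2, Evc and Bhlhe22.

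Ranked by the weakest of the 4 differences, the genes most separated in favour of A1129 beyond those above were Gypc, Rassf4, Obsl1, Nrn1, Hook1, Tbc1d9, Nipsnap1, Mgp, Ly6a, Miga1 and Arhgap6. They have varied roles. Gypc encodes glycophorin C of the membrane skeleton, Obsl1 a cytoskeletal adaptor, Hook1 a microtubule motor adaptor, and Nipsnap1 and Miga1 mitochondrial proteins. Gypc was read at 39.3, 40.4, 50.1 and 117 CPM in A1129 and 0, 0, 4 and 0 counts in A1471, and Obsl1 at 46.6, 52.6, 47.2 and 47.8 CPM and 3, 1, 5 and 1 counts. Mgp, the matrix Gla protein that inhibits calcification, had 273, 446, 208 and 258 CPM in A1129 and 2.90, 3.38, 7.40 and 5.58 CPM in A1471, a mean difference of 5.99 ± 1. Ly6a, which encodes the progenitor surface antigen Sca-1, had 76.4, 81.2, 87.2 and 214 CPM in A1129 and 1.45, 0.647, 3.99 and 2.34 CPM in A1471 (5.91 ± 1.10). A1005 was at the level of the high line for Ly6a (93.9 to 175 CPM) and at that of the low line for Gypc and Mgp (0.205 to 2.83 CPM). Ly6a and its relative Ly6c1 share sequence, and how reads matching both were counted is not given in the sources used here.

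In favour of A1471, the most separated genes beyond the on and off genes were Kcnab2, Fndc3c1, Stra6, Podnl1, Col3a1, Nup210, Enpp4, Ephb2 and Igf2bp1. Kcnab2, a potassium channel subunit gene, had 127, 105, 104 and 90.5 CPM in A1471 and 5, 1, 2 and 4 counts in A1129, which gives 537-fold, with a 95% interval of 307 to 1040.3. Stra6, the receptor for cellular uptake of retinol, had 179, 204, 146 and 157 CPM in A1471 and 2.04, 1.52, 1.65 and 1.13 CPM in A1129 (-6.78 ± 0.37). The X-linked Fndc3c1 had 214, 232, 166 and 115 CPM in A1471 and 2.37, 1.72, 1.57 and 0.815 CPM in A1129 (-6.86 ± 0.30), and A1005 held at most 1 count. Nup210, a nuclear pore glycoprotein gene, and Igf2bp1, an oncofetal RNA-binding protein gene, differed by -4.94 ± 0.48 and -4.35 ± 0.55. A1005 was with A1129 for Nup210, at 4.11 to 5 CPM, and with A1471 for Igf2bp1, at 81.3 to 118 CPM.

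Genes of collagens and of the enzymes that cut matrix were called mostly on the side of A1471. Collagens are the main fibrous proteins of matrix, and metalloproteinases and plasminogen activators degrade it. Of 24 tested collagen genes, 4 were called higher in A1471 (Col3a1, Col5a3, Col6a3 and Col16a1) and 1 in A1129 (Col23a1), with a median difference of -0.44 over the 24 genes. Of 26 tested protease and inhibitor genes, 7 were higher in A1471, among them Mmp2, Mmp9, Mmp14 and Plau, and 1 in A1129 (Mmp3), with a median of -0.53. The called shares were 20.8% and 30.8%, against 7.07% of all tested genes. Since the lists were chosen with earlier results known, shares here and below are descriptions, and the median over all tested genes was 0.01. Every share is of tested members. A gene read in 1 line alone can pass the filter on low counts through that line, so the shares follow in part from the filter.

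Col3a1, the fibrillar collagen III gene, had 3.42, 3.24, 9.59 and 19.9 CPM in A1129 and 297, 322, 685 and 945 CPM in A1471. A1471 was 47.4-fold higher or more under each treatment, and the level was higher with PD173074 and with the combination than with DMSO in both lines. Col6a3, of the microfibrillar collagen VI, had 10.6, 21.3, 10.4 and 20.8 CPM in A1129 and 268, 290.2, 198 and 228 CPM in A1471 (-4.04 ± 0.53). The collagen I genes were not part of this. Col1a1 had 0 to 5 counts in A1129 and 1 to 9 counts in A1471, and was read at 229 to 759 CPM in A1005 alone.

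Mmp2, a gelatinase gene, had 16.5, 15.7, 40.1 and 58.5 CPM in A1471 and 0, 3, 1 and 5 counts in A1129, which gives 216-fold, with a 95% interval of 113 to 473. The other gelatinase gene, Mmp9, had 2.89, 3.10, 1.57 and 0.94 CPM in A1129 and 28.7, 42.1, 35.9 and 35.5 CPM in A1471 (-4.20 ± 0.85). Mmp14, the membrane-bound protease that activates pro-MMP2, differed less, with 81.5, 66.5, 122 and 304 CPM in A1129 and 166, 139, 433 and 1003 CPM in A1471 (-1.41 ± 0.43). All 3 genes were thus higher in A1471 under each treatment. Plau, the urokinase gene, had 48.1, 32.2, 26.5 and 4.51 CPM in A1129 and 234, 286, 142 and 104 CPM in A1471. In the other direction, the stromelysin gene Mmp3 had 44.9, 65.1, 13.9 and 1.63 CPM in A1129 and 2.49, 4.17, 1.35 and 0.679 CPM in A1471 (3.19 ± 1.33), and was highest in A1005, at 40.8 to 916 CPM.

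Of 21 tested matrix glycoprotein and proteoglycan genes, 4 were higher in A1129 (Mgp, Nid1, Nid2 and Tnxb) and 4 in A1471 (Dcn, Tnc, Fbln1 and Ecm1). The called share was 38.1% against 7.07% of all tested genes, and the median -0.36. Nid2, a basement membrane linker, had 6.77, 7.20, 7.94 and 15.8 CPM in A1129 and 0 counts in every A1471 library, a difference of at least 32.7-fold. Its relative Nid1 was read in both lines and was 255 to 317 CPM in A1129 and 70.5 to 123 CPM in A1471 (1.39 ± 0.32). Dcn, the proteoglycan decorin, had 5, 4.29, 13 and 20.9 CPM in A1129 and 72.5, 70.1, 170.1 and 205 CPM in A1471 (-3.72 ± 0.32). Fibronectin, Fn1, was not called and changed order with treatment, with 481, 915, 499 and 377 CPM in A1129 and 527, 477, 1947 and 5093 CPM in A1471.

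Of 14 tested EMT and mesenchymal genes, 2 were called, both higher in A1471: Prrx2 (-2.01 ± 0.49) and the calcium-binding protein gene S100a4 (-1.68 ± 0.38). This was 14.3% of the list against 7.07% of all tested genes, with a median of -0.27. Vimentin, Vim, was read at 1903 to 2482 CPM in A1129 and 2692 to 3204 CPM in A1471. The EMT transcription factor genes Twist1, Zeb1, Zeb2 and Snai1 differed by 0.16 ± 0.11, -0.48 ± 0.19, 0.47 ± 0.38 and -0.20 ± 0.30, each within 2-fold under every treatment. Prrx1 was at 149.7 to 308 CPM in A1129 and 153 to 306 CPM in A1471 and at 0.156 to 0.445 CPM in A1005, and so marked both lines off from A1005 rather than from each other.

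Of 16 tested epithelial genes, 5 were higher in A1129 and 1 in A1471, 37.5% of the list against 7.07% of all tested genes, with a median difference of 0.36. Cd24a, a surface glycoprotein of luminal mammary cells, had 419.8, 337, 478 and 936 CPM in A1129 and 6.84, 6.54, 27.5 and 56.1 CPM in A1471 (4.95 ± 1). Gata3, the luminal transcription factor, had 10.3, 10.8, 12.1 and 21.1 CPM in A1129 and 0.898, 0.791, 1.28 and 0.981 CPM in A1471 (3.74 ± 0.51), and keratin Krt18 had 38.1, 49.4, 19 and 19.7 CPM and 10, 12.4, 4.48 and 4 CPM (2.08 ± 0.16). The splicing regulator Esrp2 and the transcription factor Elf3 were also higher in A1129, at 1.12 to 6.39 CPM and 1.05 to 3.45 CPM, with at most 2 counts in any A1471 library. The genes that define the epithelial state were near 0 in both lines. E-cadherin, Cdh1, was at no more than 0.564 CPM in A1129 and 0.302 CPM in A1471, and Epcam at no more than 0.429 and 2.08 CPM. In the other direction, the epithelial factor Grhl2 was higher in A1471 (-1.86 ± 0.23), as was the keratin Krt8 under 3 of the 4 treatments (-1.41 ± 0.89, not called).

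**Figure D3:**
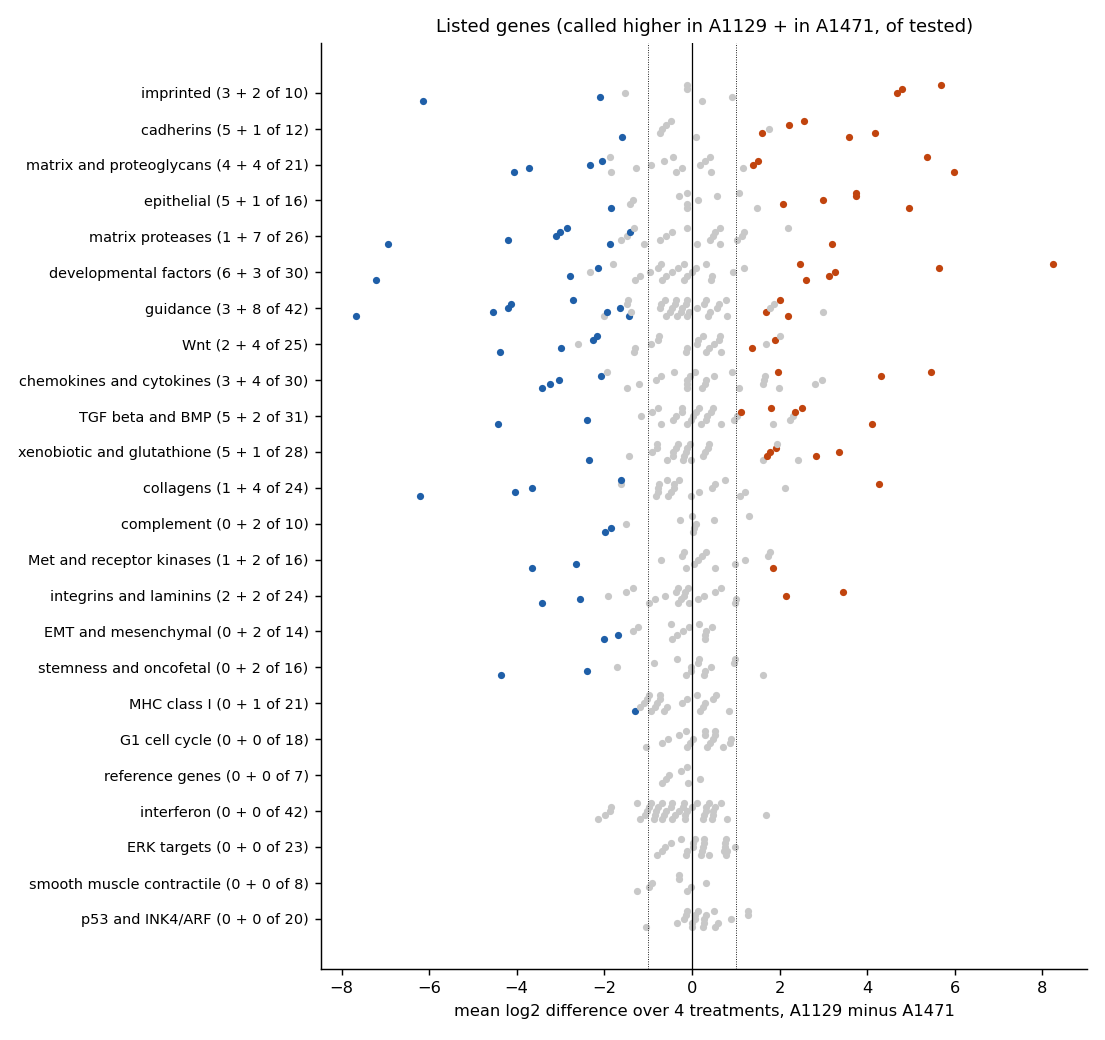
Mean log2 difference over the 4 treatments (A1129 minus A1471) of each tested gene in the gene lists with at least 7 tested members, 1 point per gene and 1 row per list. Orange and blue points are genes called higher in A1129 and in A1471, whose numbers stand in brackets with the number tested; the rows at the top hold the largest called shares, and no point is coloured in the 6 lowest rows.

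Adhesion and guidance molecules separated the lines in both directions. Of 31 cadherins and protocadherins in the table, 12 were tested. Of these 12, 5 were higher in A1129 (Cdh13, Pcdh7, Pcdh9, Pcdh17 and Dchs1) and 1 in A1471 (Pcdh18). This was 50% of the tested members against 7.07% of all tested genes, with a median of 0.85. Of the 31, 16 were at 3 counts or fewer in every A1129 library and 18 in every A1471 library. The share and the median therefore follow in part from the filter on low counts. Cdh13, the GPI-anchored T-cadherin, had 146, 187, 153 and 326 CPM in A1129 and 29.8, 27.6, 45.8 and 77.2 CPM in A1471 (2.22 ± 0.42). Dchs1, a large cadherin of planar polarity, had 58.7 to 145 CPM and 17.4 to 57.8 CPM, and at most 1 count in A1005. Pcdh7 was read at 1 to 1.64 CPM in A1129 and had 0 counts in every A1471 library. Of 24 tested integrin and laminin genes 4 were called, 16.7% against the same 7.07%, with a median of -0.22. Itga7 (2.15 ± 0.78) and Itgb4 were higher in A1129 and Itga1 and Itgb7 (-2.55 ± 0.46) in A1471.

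Of 42 tested ephrin, semaphorin, plexin, netrin and slit pathway genes, 8 were higher in A1471 (Efnb1, Ephb2, Ephb3, Sema4d, Sema7a, Plxna4, Nrp1 and Unc5b) and 3 in A1129 (Sema3a, Sema3e and Slit2). The called share was 26.2% against 7.07% of all tested genes, or 2.64% of them for genes higher in A1471, and the median was -0.30. Ephrins and their Eph receptors signal between touching cells. Ephb2, a receptor of ephrin-B1, had 1.45, 2.18, 1.79 and 1.57 CPM in A1129 and 53.8, 57.4, 34.5 and 24.4 CPM in A1471 (-4.54 ± 0.55), so that the ligand Efnb1 and the receptor were both higher in A1471. The membrane semaphorins Sema4d and Sema7a were 18.3 to 49.3 CPM and 27 to 306 CPM in A1471 and 1.38 to 2.51 CPM and 3.38 to 55.1 CPM in A1129. The secreted semaphorin Sema3a had the other direction, with 20.1, 16.4, 23.3 and 38.9 CPM in A1129 and 2.90, 3.09, 6.12 and 12.8 CPM in A1471 (2.18 ± 0.52), while its receptor Nrp1 was higher in A1471 (-1.65 ± 0.44).

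Among 30 tested developmental transcription factors and cofactors, 6 were higher in A1129 (Sox11, Pax6, Pax9, Eya4, Gata2 and Gata4) and 3 in A1471 (Runx3, Eya1 and Dlx3), 30% of the list against 7.07% of all tested genes, with a median of -0.19. Gata2, a zinc finger factor of blood and neural progenitors, had 152, 185, 113 and 114 CPM in A1129 and 20.7, 23.3, 14.2 and 6.19 CPM in A1471 (3.26 ± 0.63). Within the Eya family of transcriptional cofactors the lines had opposite members. Eya4 had 10.2, 10.8, 12.5 and 16 CPM in A1129 and 3, 1, 2 and 5 counts in A1471. Eya1 had 0.789, 1.19, 2 and 3.76 CPM in A1129 and 5.53, 6.11, 14.5 and 33.6 CPM in A1471 (-2.79 ± 0.33). Of 39 Hox genes in the table, 2 were tested, and Hoxa5 was higher in A1471 (-4.52 ± 0.63).

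Imprinted genes are read from the copy of one parent. Of 29 in the table, 10 passed the filter on low counts, and 5 of these 10 were called. This was 50% of the tested members against 7.07% of all tested genes, with a median of 0.06. Of the 29, 19 were at 3 counts or fewer in every A1129 library and 23 in every A1471 library. Members silent in every line drop out and members read in 1 line can stay, so the share follows in part from the filter. Kcnq1ot1, the long non-coding RNA of the Kcnq1 imprinted domain on chromosome 7, had 10.5, 14.1, 12.5 and 8.46 CPM in A1129 and 0 counts in every A1471 library, a difference of at least 37.4-fold. Airn, the non-coding RNA of the Igf2r domain on chromosome 17, had 5.66, 8.78, 4.72 and 5.64 CPM in A1129 and 0, 0, 2 and 2 counts in A1471. H19, a maternally read non-coding RNA, had 4.87, 3.90, 4.65 and 10.8 CPM in A1129 and 0, 0, 1 and 1 counts in A1471. The lines therefore differed at 3 imprinted non-coding RNAs, each of them read in A1129. The called protein-coding genes were on the other side. Igf2r, the receptor that clears IGF2, had 174, 226, 183 and 231 CPM in A1129 and 966, 1037, 682 and 833 CPM in A1471 (-2.10 ± 0.29), and the growth inhibitor Grb10 had 0, 4, 1 and 0 counts in A1129 and 11.1, 8.34, 21.5 and 26.8 CPM in A1471. Airn starts within Igf2r (Airn 12741311-12860136, plus strand; Igf2r 12682406-12769664, minus strand, chromosome 17, GRCm38), and whether reads were counted by strand is not given in the sources used here.

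Of 16 tested receptor tyrosine kinase genes and ligands, Erbb2 was higher in A1129 and Egfr and Pdgfrb were higher in A1471, together 18.8% against 7.07% of all tested genes, with a median of 0.18. Erbb2 had 19.1, 18.8, 27.4 and 43.7 CPM in A1129 and 5.04, 4.89, 9.11 and 11.7 CPM in A1471 (1.84 ± 0.17). Pdgfrb, a receptor of mesenchymal cells, had 0.46, 1.06, 3.65 and 4.51 CPM in A1129 and 5.25, 5.97, 63.8 and 98.3 CPM in A1471 (-3.65 ± 0.86), and was higher in both lines with PD173074 and the combination than with DMSO. Egfr was low, at 0.066 to 0.94 CPM and 1.45 to 2.57 CPM. Fgfr1, whose product PD173074 inhibits, had 256, 337, 248 and 302 CPM in A1129 and 286, 293, 246 and 282 CPM in A1471 and did not separate the lines (0.04 ± 0.15).

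Met itself was not called. It had 4978, 4434, 6881 and 6920.5 CPM in A1129 and 2613, 2126, 4578 and 2666 CPM in A1471, a mean difference of 0.99 ± 0.33 with 0.59 at its lowest, with PD173074, and 1.38 at its highest, with the combination. A count per gene does not separate transcripts of the Met transgene from those of the endogenous gene at chromosome 6, 17463800-17573980. The genes beside Met were also higher in A1129. Capza2, the actin capping protein gene next to Met, had 6805, 5895, 7216 and 5162 CPM in A1129 and 2300, 2032, 3808 and 1212 CPM in A1471 (1.53 ± 0.48). Tes, a focal adhesion gene before Met, had 5423, 5302, 4522 and 3979 CPM and 2460.4, 2303, 2997 and 1951 CPM (0.99 ± 0.27). A1005 was low for Tes, at 206 to 359 CPM, but had 11112 to 16562 CPM of Capza2 and 4825 to 8327 CPM of Met. Cav1 and Cav2, which encode caveolins, differed by 0.72 ± 0.43 and 1.44 ± 0.80, and Cftr, an anion channel gene, was called with 4.56 to 10.2 CPM in A1129 and 0.503 to 1.85 CPM in A1471 (2.81 ± 0.31). DNA copy number was not measured.

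To describe such neighbours across the genome, the median difference was taken over each run of 25 tested genes along a chromosome. Medians ranged from -0.85 to 1.13 on the log2 scale over 13330 runs. The highest was that of a run around Met and was the value of Asz1, a gene read near the floor. Asz1 had 0.592 to 2.36 CPM in A1129 and 0 to 0.712 CPM in A1471. Runs with a median of at least 1 in size and of the same sign under every treatment fell into 2 regions, both higher in A1129. Since the regions were chosen by this median, their medians and their shares of genes above 0 follow in part from the choice. The first was around Met, chromosome 6, 8630527-18848207, where 23 of 29 tested genes were above 0 and the median was 0.99. Its medians varied with treatment, 0.84 with DMSO, 0.70 with Crizotinib, 0.59 with PD173074 and 1.36 with the combination. Of its 29 tested genes, 4 were called higher in A1129 (Cftr, Gm36503, Gm5300 and Thsd7a) and 1 in A1471 (Gm20186). Over all tested genes, 4.43% were called higher in A1129 and 2.64% in A1471. Gm36503 was read near the floor, at 1.07 to 1.78 CPM in A1129 and 0.069 to 0.144 CPM in A1471. The second was the distal end of chromosome 2, 178067695-181693977, where 38 of 40 tested genes were above 0, with a median of 1.01 and medians of 1.04, 0.99, 1 and 0.81 with DMSO, Crizotinib, PD173074 and the combination. In this second region 4 of the 40 tested genes were called, against 7.07% of all tested genes, and nothing is read from this number. The 4 were Rtel1, a telomere helicase gene (1.54 ± 0.26), Ss18l1, a chromatin remodelling subunit gene (1.40 ± 0.27), the zinc finger gene Zfp512b (1.22 ± 0.07) and Taf4, a subunit gene of the general transcription factor TFIID (1.20 ± 0.14). With DESeq2 size factors 3 regions were found, with runs of 15 genes 6, and with runs of 50 genes 0.

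**Figure D4:**
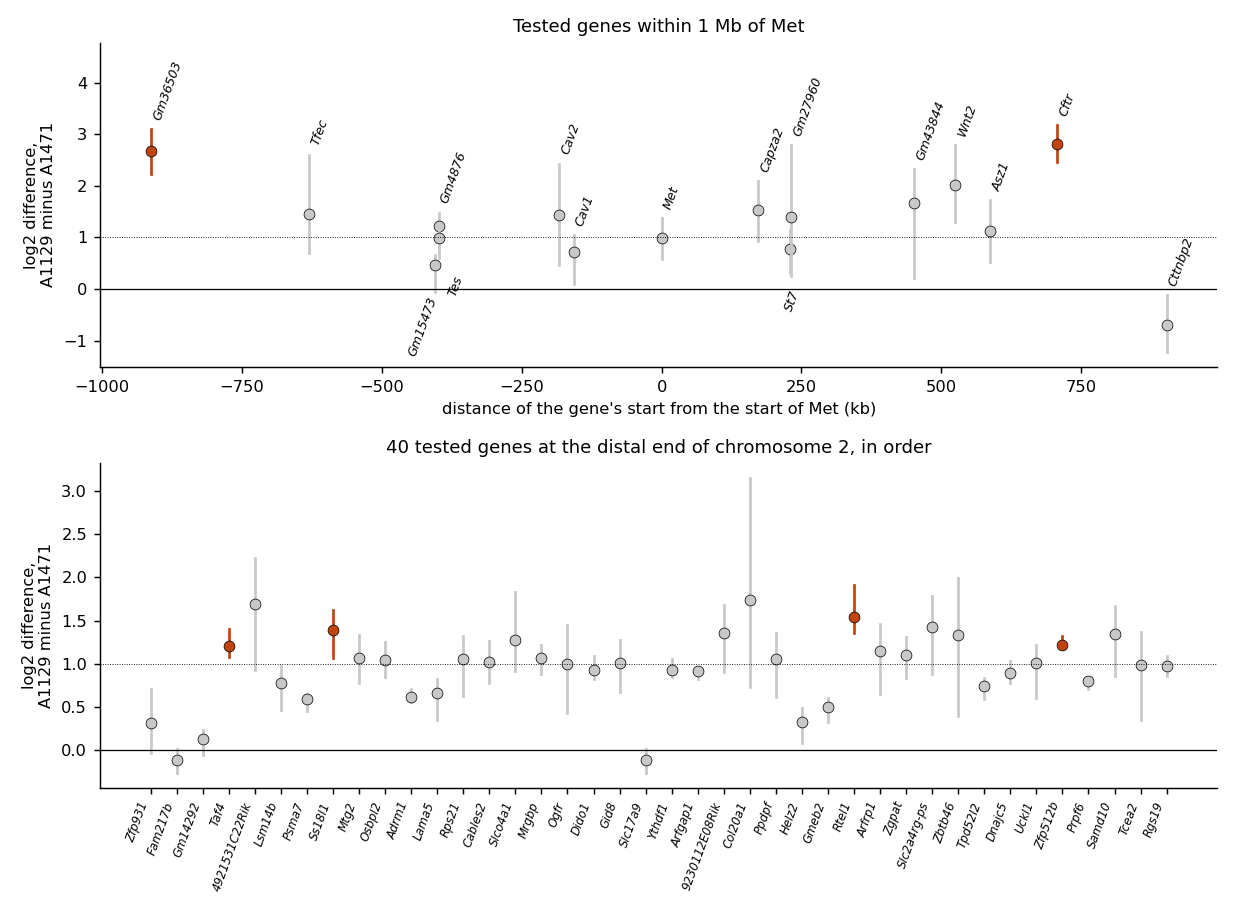
Log2 difference between A1129 and A1471 of the tested genes within 1 Mb of Met, against the distance of each gene's start from the start of Met in kb (top), and of the 40 tested genes of the distal chromosome 2 region in chromosomal order (bottom). Points are means and vertical lines the range over the 4 treatments, orange points are called genes and the dotted line marks 2-fold; most genes of both panels lie between 0 and 2, and Cttnbp2, Fam217b and Slc17a9 are below 0.

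Secreted signals differed in part. Of 30 tested chemokine and cytokine genes, 3 were higher in A1129 (Cxcl12, Tslp and Cxcl3) and 4 in A1471 (Cx3cl1, Vegfc, Csf1 and Ccl5), 23.3% of the list against 7.07% of all tested genes, with a median of 0.15. Cxcl12, the ligand of the chemokine receptor CXCR4, had 4.01, 2.51, 12 and 68.7 CPM in A1129 and 0, 0, 1 and 1 counts in A1471, and was highest with the combination. Csf1, the macrophage growth factor, had 59.3, 55.7, 80.4 and 64.6 CPM in A1129 and 174, 130.3, 442 and 559 CPM in A1471 (-2.09 ± 0.86). Cx3cl1, a membrane-bound chemokine, had 12.8, 23.1, 9.66 and 22.1 CPM and 123, 133, 193 and 270 CPM (-3.43 ± 0.75).

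In the remaining pathway lists the called share was 24% for Wnt, 22.6% for TGF beta and BMP, 21.4% for xenobiotic and glutathione, 12.5% for stemness and oncofetal and 20% for complement genes, against 7.07% of all tested genes. Their medians were 0.10, 0.21, -0.08, 0.06 and 0.01. Of 25 Wnt pathway genes, the ligands Wnt9a, Wnt10a and Wnt10b and the inhibitor Nkd1 were higher in A1471, and the receptors Fzd4 (1.37 ± 0.24) and Fzd6 (1.90 ± 0.16) in A1129. Wnt10a had 7.76, 6.27, 18.2 and 6.77 CPM in A1129 and 23.7, 21, 88.2 and 70.8 CPM in A1471 (-2.25 ± 0.81), and Nkd1 had 0 counts in every A1129 library and 3.13 to 4.83 CPM in A1471. Of 31 TGF beta and BMP pathway genes, 5 were higher in A1129 (Id1, Smad9, Tgfbr1, Fstl3 and Chrdl1) and 2 in A1471 (Inhbb and Ltbp2). Id1, an inhibitor of helix-loop-helix factors that BMP signals induce, had 119, 105, 65.6 and 20.4 CPM in A1129 and 14.9, 17.5, 15.9 and 5.81 CPM in A1471 (2.36 ± 0.53). Of 28 xenobiotic and glutathione genes, 5 were higher in A1129 (Slc7a11, Gsta4, Gstm4, Mgst1 and Mgst3) and 1 in A1471 (Ephx1). Slc7a11, the cystine transporter that feeds glutathione synthesis, had 185, 402, 129 and 19.2 CPM in A1129 and 19.6, 20.8, 14.5 and 2.87 CPM in A1471 (3.35 ± 0.65). Of 16 stemness and oncofetal genes, Igf2bp1 and Ncam1 (-2.39 ± 0.29) were called, both higher in A1471, and of 10 complement genes C1qtnf1 and C1qtnf6, also higher in A1471.

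None of 23 ERK target genes, 42 interferon genes, 20 p53 pathway and INK4/ARF genes, 18 G1 cell cycle genes, 8 smooth muscle contractile genes or 7 reference genes was called, and of 21 MHC class I genes 1 was, H2-T23, higher in A1471. The median difference was 0.23 for the ERK targets, -0.41 for the interferon genes, 0.19 for the p53 list and 0.31 for the G1 list. Trp53 was read at 5.59, 7.73, 6.15 and 3.32 CPM in A1129 and 7.94, 6.40, 5.69 and 4.90 CPM in A1471, and Cdkn2a, which encodes p16 and p19ARF, at 431 to 761 CPM and 510 to 835 CPM. These are counts by a 2-fold rule under every treatment, and smaller differences were not excluded by them. The share over all tested genes was 7.07%, which is few calls in lists of this length, and nothing particular to them is read from the lack of calls.

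The size of the separation depended on the treatment for some genes. Over all tested genes the SD of the 4 differences had a median of 0.27. Among the called genes at 20 CPM or more in the high line, the widest ranges were those of Rassf4, Nrn1, Arhgap6, Ly6c1 and Prrg4 for A1129 and Slc16a3, Plau, Edil3, Mmp9 and Csf1 for A1471. Rassf4 had 46, 54, 125 and 637 CPM in A1129 and 3, 1, 11 and 7 counts in A1471, with A1005 at 54.3 to 114 CPM. Nrn1, which encodes the GPI-anchored neuritin, went the other way in A1129, with 198, 235, 69.5 and 25.4 CPM, and A1471 held 3, 0, 6 and 1 counts. The lactate transporter gene Slc16a3 had 52.2, 36.3, 32.1 and 4.14 CPM in A1129 and 147, 119, 144 and 60.5 CPM in A1471, so that the difference was -1.49 with DMSO and -3.87 with the combination. Edil3, a matrix protein gene, had 2.76, 2.64, 4.08 and 18.1 CPM and 29.4, 33.1, 56.9 and 54.2 CPM, and its difference was smallest with the combination (-1.58). Each of these values rests on 1 library per line and treatment.

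**Figure D5:**
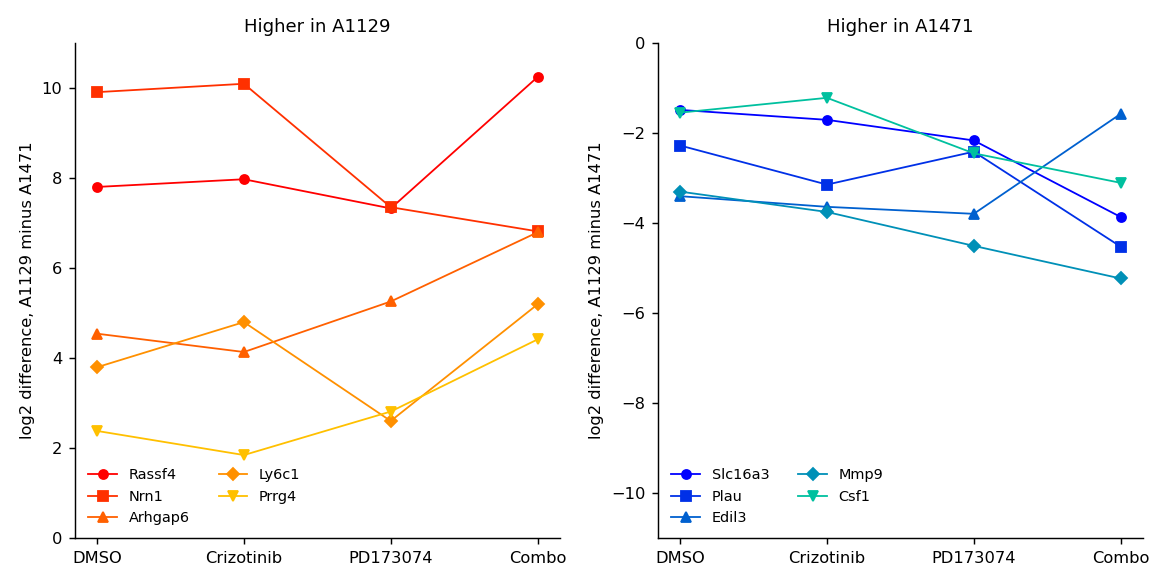
Log2 difference between A1129 and A1471 under each of the 4 treatments for the 5 called genes with the widest range in each direction, 1 line per gene. Rassf4, Arhgap6, Ly6c1 and Prrg4 lie farthest from 0 with the combination and Nrn1 nearest, and for A1471 Slc16a3, Plau, Mmp9 and Csf1 lie farthest from 0 with the combination and Edil3 nearest.

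Both lines changed far more with the combination than with either inhibitor. At least 2-fold from DMSO, 2207 genes were higher and 1838 lower with the combination in A1129, and 2178 and 1746 in A1471. With Crizotinib 174 and 150 genes passed this size in A1129 and 172 and 134 in A1471. With PD173074 the numbers were 401 and 273 in A1129 and 949 and 303 in A1471. Across the tested genes, which are not independent replicates, the changes of the lines had a Pearson r of 0.15 with Crizotinib, 0.48 with PD173074 and 0.75 with the combination. With the combination, the 23 ERK target genes had a median change of -3.01 in A1129 and -3.21 in A1471. Of them, 20 and 18 were at least 2-fold lower, against 1838 and 1746 of all 13836 tested genes. With Crizotinib alone the medians were 0.09 and 0.14, and 0 of these genes were at least 2-fold lower in either line. With PD173074 alone the medians were -0.51 and -0.67, and 0 and 5 were at least 2-fold lower, against 273 and 303 of all tested genes. With 1 library per line and treatment, the differences between the responses have no replicate check.

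By the same rule, 14.3% of the tested genes separated A1005 from A1129 and 12.5% separated A1005 from A1471, comparisons that share the libraries described here. Taking the midpoint between A1129 and A1471 under each treatment, A1005 lay on the side of A1129 under all 4 treatments for 226 of the 613 genes higher in A1129 and on the side of A1471 for 264. For the 365 genes higher in A1471 it lay on the side of A1471 for 106 and on the side of A1129 for 208. This line therefore sided with neither line as a whole.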

How the data were processed

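RNA from tumourspheres of 3 mouse lines under 4 treatments, 12 libraries in all, was sequenced on a NextSeq500 instrument at a core facility. The deposited table holds raw counts, whole numbers of reads on each of 55573 Ensembl genes, with no normalization and 1 column per library. Per the labels, the processing tools were bcl2fastq, STAR and HTSeq with the mouse build mm10, and versions, strand setting and annotation release are not given in the sources used here. Genes that overlap or share sequence are therefore uncertain. Line and treatment came from the sample labels. No labels give replicate numbers.

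Genes were filtered with filterByExpr of edgeR 4.0.16 in R 4.3.3 (minimum count 10, minimum total count 15, by treatment over 12 libraries), which kept 13836 genes, and scaled by TMM. Names and positions came from GENCODE release M21 for mm10, where 55480 of the genes were found. Differences were computed in Python 3.11.15 with pandas 2.3.3 and numpy 2.4.6 and plotted with matplotlib 3.10.9. A count under 3 in a library was raised to the floor of 3.

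The design has 1 line per side, so the main comparison is a rule of size without a test. Genes were named as members of 29 lists, as the 15 most separated per direction with at least 20 CPM in the high line, as genes with at most 3 counts in one line and at least 10 CPM in the other, as called genes in regions or genes within 1 Mb of Met, as the 5 per direction with the widest range, and as genes with opposite 2-fold changes with the combination. The genes at the edge of the calling rule are outside this naming rule, and not every list member is described one by one. The members, lists and rules were chosen with earlier results of these data known. Alternatives were DESeq2 size factors, total counts alone, TMM over 8 libraries, no filter, at least 10 counts in 8 libraries, a prior count of 2, larger folds, leaving out each treatment, and edgeR or DESeq2 1.42.0 with treatment as a block, which take the libraries of a line as if they were replicates. Molecular identifiers are not mentioned in the sources used here, and floors and intervals cover counting error only.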

Additional observations from a re-analysis of the deposited data

Results flagged for a closer look

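Tmcc3, a gene of the endoplasmic reticulum, was the only gene with at least 20 CPM in a library of each line whose levels changed at least 2-fold in opposite directions with the combination. In A1129 it had 14.5 CPM with DMSO and 35.6 CPM with the combination (1.29 on the log2 scale), and in A1471 it had 23.3 and 8.45 CPM (-1.47). The responses differed by 2.76 on the log2 scale. The difference was not tested, because each value is 1 library.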

How the results depend on the processing

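The main counts, 613 genes higher in A1129 and 365 higher in A1471, depend on how strict the rule is and little on scaling. DESeq2 size factors gave 604 and 372 genes, total counts alone 638 and 346, TMM over the 8 libraries 603 and 371, no filter on low counts 599 and 380, and a prior count of 2 in place of the floor 589 and 351. Asking for at least 10 counts in each of the 8 libraries left 245 and 198 genes, which removes by construction the genes off in one line. A log2 difference of at least 1.5 under every treatment left 396 and 228 genes and a 4-fold difference 273 and 166. Leaving out 1 treatment in turn gave 684 to 752 genes higher in A1129 and 392 to 487 higher in A1471, with the highest numbers without the combination. EdgeR with treatment as a block (adjusted p under 0.05 and at least 2-fold) gave 1220 and 833 genes, and DESeq2 in the same design 1109 and 754. These tests count the libraries of a line as replicates. Their p-values set the difference between the lines against its variation over the treatments, and not against variation between independent lines.

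The 2 regions became 6 with runs of 15 genes, 0 with runs of 50 genes and 3 with DESeq2 size factors. For the 137 named genes that were called, 1096 mean differences were recomputed under 8 settings, and none changed sign. Of these, 1076 moved by less than the SD over treatments, and the other 20 moved by more, all with the prior count of 2. Because a called gene has all its differences in the same direction, leaving out a treatment could not change a sign. Nor could it move a mean by more than the SD, so those settings are no check on the called genes. Numbers of genes past 2-fold from DMSO in each line stayed within 1.5 times under DESeq2 size factors. Genes at 0 in one line are limited by depth, since 3 counts correspond to about 0.2 CPM.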

Other observations

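Called genes were spread over the genome, and some lay side by side. How many would do so by position alone was not computed, so the counts of neighbours are descriptions. Of the 978, 163 (16.7%) had a neighbour among the tested genes of their chromosome that was called in the same direction, which made 87 neighbouring pairs, while 24 neighbouring pairs were called in opposite directions. On the X chromosome 41 of 455 tested genes were higher in A1129 and 9 in A1471, 10.99% in all against 7.07% over the genome, and the median difference there was 0.09. Xist, the non-coding RNA of the inactive X chromosome, had 179.9, 197, 179 and 126 CPM in A1129 and 75.6, 117, 67.8 and 57.6 CPM in A1471 (1.13 ± 0.28), and was not called because the difference was 0.75 with Crizotinib.

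Whole chromosomes also had shifts that were small beside the called differences and similar under the 4 treatments. The median difference was 0.37 over 987 tested genes of chromosome 7, with 0.38, 0.38, 0.39 and 0.28 under DMSO, Crizotinib, PD173074 and the combination. On chromosome 18 it was -0.40 over 387 genes and on chromosome 13 it was -0.35 over 556 genes. DNA copy number was not measured, and no explanation of these shifts was tested.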
